A study of Mus musculus with 2 samples.

Results

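The miR-181 family in the mouse is made from 6 precursor genes, Mir181a-1, Mir181b-1, Mir181a-2, Mir181b-2, Mir181c and Mir181d, which lie in 3 clusters of 2 genes each. These 6 genes were chosen by their symbols from the 2202 microRNA (miRNA) genes of the deposited count tables. The rule uses no measured value, although the family was picked for description with earlier results of these data known. The samples were adrenal glands taken on postnatal day 4 from males of B6CASTF1/J, a hybrid of the strains C57BL/6J and CAST/EiJ, and the labels give no treatment. The only group held 2 libraries of total RNA reads under 30 nucleotides. Replicate 1 was from the male numbered 3 and replicate 2 from the male numbered 4. Both carried the same donor label. They were taken as 2 animals by the numbers of the males, which the shared donor label leaves uncertain. Because there is no second group, the values describe levels and the difference between these 2 libraries, not between conditions. The whole gland was sequenced, cortex and medulla together, so fewer cells of a type and less RNA per cell cannot be told apart.

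A miRNA gene is transcribed as a longer RNA from which a hairpin is cut, and each arm of the hairpin (5p or 3p) can give a mature miRNA of about the length of the reads. Bases 2 to 8 of a mature miRNA, its seed, pair with target mRNAs and largely set which messages it represses. The miR-181 family is best known from the mouse thymus, where miR-181a represses phosphatases that damp T cell receptor signalling, and it is also studied in brain and blood vessels. Genes of a cluster are usually cut from 1 shared transcript, so that their transcription rises and falls together, while processing and stability can differ between them.

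The mature sequences show which arms can be told apart by a read, and they are given here because all levels below depend on it. All 6 genes had mature sequences in RefSeq (build GRCm38.p6), 12 entries in all with 10 distinct names. Capitals mark the seed.
miR-181a-5p, from Mir181a-1 and Mir181a-2: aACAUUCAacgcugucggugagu
miR-181b-5p, from Mir181b-1 and Mir181b-2: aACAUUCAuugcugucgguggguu
miR-181c-5p, from Mir181c: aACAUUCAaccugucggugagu
miR-181d-5p, from Mir181d: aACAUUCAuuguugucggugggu
miR-181a-1-3p, from Mir181a-1: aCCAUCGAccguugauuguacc
miR-181a-2-3p, from Mir181a-2: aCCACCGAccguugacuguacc
miR-181b-1-3p, from Mir181b-1: cUCACUGAacaaugaaugcaa
miR-181b-2-3p, from Mir181b-2: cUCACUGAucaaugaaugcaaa
miR-181c-3p, from Mir181c: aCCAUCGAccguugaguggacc
miR-181d-3p, from Mir181d: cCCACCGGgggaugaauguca

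The 5p forms of all 6 genes carried the seed ACAUUCA, and among the 1738 mature entries of that table no entry outside the family carried it. The 3p forms had 4 different seeds between them. One was shared by miR-181a-1-3p and miR-181c-3p, and one by miR-181b-1-3p and miR-181b-2-3p. Substitutions are written with the base of the first form, its position counted from 1 at the 5′ end, and the base of the second form. From miR-181b-5p to miR-181d-5p the only substitution was C12U, and miR-181b-5p was 1 base longer at its 3′ end. From miR-181a-5p to miR-181b-5p the substitutions were A9U, C10U and A21G, with 1 base more at the 3′ end. The form miR-181c-5p differed from miR-181a-5p by 1 base fewer. From miR-181b-1-3p to miR-181b-2-3p the substitution was A9U, with 1 base more at the 3′ end. From miR-181a-1-3p to miR-181a-2-3p the substitutions were U5C and U16C, of which U5C lies in the seed.

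The a and b genes of the first 2 clusters share their 5p form exactly. In the RefSeq hairpins the identity of Mir181a-1 and Mir181a-2 around miR-181a-5p ran over 28 bases, 4 of them past its 3′ end. That of Mir181b-1 and Mir181b-2 around miR-181b-5p ran over 26 bases and stopped at its 3′ end. The deposited tables set aside reads that aligned to more than 1 locus. A read that lies within such a shared run fits both genes of the a pair or both genes of the b pair, so the counts of these 4 genes do not measure the level of miR-181a-5p or miR-181b-5p. The 5p and 3p forms of Mir181c and Mir181d, and the 3p forms of the other 4 genes, were each listed at 1 locus alone. Reads of the 2 arms of a gene are summed in its count and were not told apart.

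Coordinates are those of GENCODE M21 on mm10, counted from 1. Mir181a-1 (ENSMUSG00000065565.1, chr1:137966455-137966541) and Mir181b-1 (ENSMUSG00000065458.1, chr1:137966639-137966718) lie on the plus strand with 97 bases between them. Both are in an intron of the noncoding gene Gm4258 and opposite to an intron of the noncoding gene Gm26936, and Mir181b-1 also lies wholly in the exon of the noncoding gene A430106G13Rik, which takes in the last 11 bases of Mir181a-1. Mir181a-2 (ENSMUSG00000065423.1, chr2:38852735-38852810) and Mir181b-2 (ENSMUSG00000065578.1, chr2:38853830-38853918) lie on the plus strand with 1019 bases between them, opposite to an intron of Nr6a1, which encodes an orphan nuclear receptor. Mir181b-2 also lies opposite to an exon of Gm44144, a locus whose annotation is provisional. Mir181c (ENSMUSG00000065483.2, chr8:84178873-84178961) and Mir181d (ENSMUSG00000076338.1, chr8:84178716-84178787) lie on the minus strand with 85 bases between them, in an intron of an annotated transcript of Nanos3, which encodes an RNA-binding protein of germ cells. No other miRNA gene of the tables lay within 10000 bases of any of the 6 genes.

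**Figure D1:**
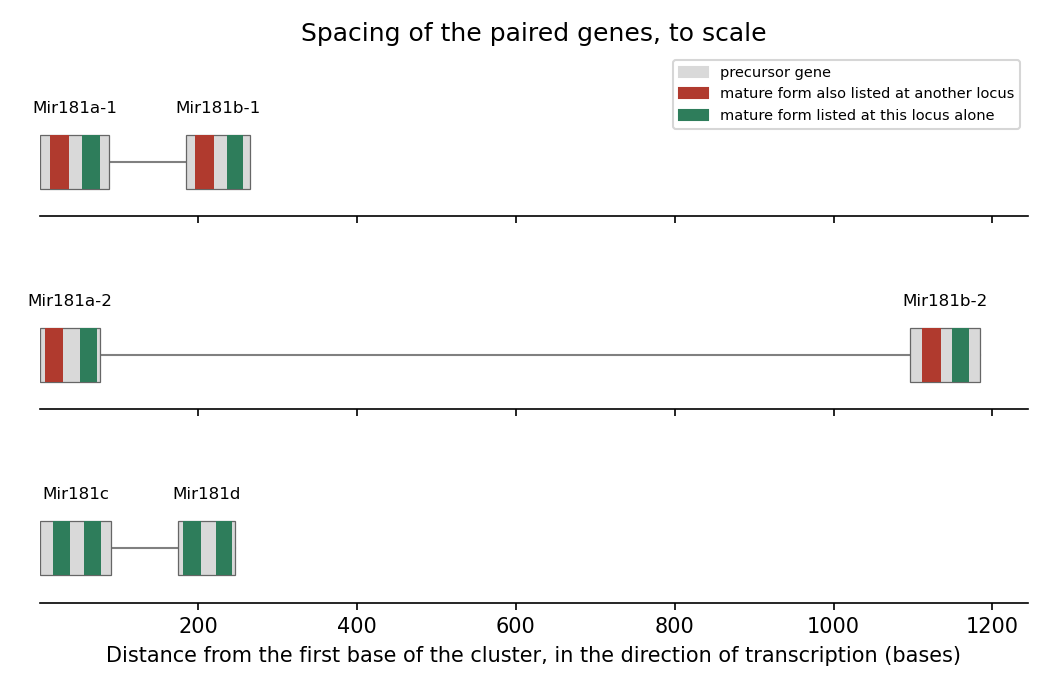
The 3 clusters drawn to scale along the direction of transcription, with the distance from the first base of each cluster in bases on the horizontal axis. Grey boxes are precursor genes, red bands are mature forms also listed at another locus, and green bands are forms listed at 1 locus alone; Mir181c and Mir181d have no red band, and the gap of 1019 bases between Mir181a-2 and Mir181b-2 is the widest of the 3.

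All 6 genes were counted in both libraries, and in the reads assigned to 1 gene the family was led by Mir181d and Mir181c. Levels are counts scaled to 1000000 sense-strand miRNA counts of a library (CPM); since a read of this assay spans a whole mature form, counts were not divided by gene length. The family held 16135 of 3961630 miRNA counts in replicate 1, or 0.407% (95% exact interval 0.401 to 0.414%). In replicate 2 it held 5577 of 1686822, or 0.331% (0.322 to 0.339%). The mean was 3689.5 ± 542 CPM (SD, n = 2). Intervals cover counting error only, not the spread between libraries. They also treat reads as independent, although reads copied by PCR are not independent molecules.

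Mir181d was counted 6293 times in replicate 1 (1588 CPM) and 2268 times in replicate 2 (1345 CPM), with a mean of 1467 ± 172 CPM (SD, n = 2). It ranked 68th and 74th of the 2202 genes. Mir181c had 6169 and 1990 counts in the same order of libraries, or 1557 and 1179.7 CPM, with a mean of 1368 ± 267 CPM, and ranked 69th and 81st. Mir181d was above Mir181c within each library, but the ranges of the 2 genes over the libraries overlapped.

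Mir181b-2 was counted 2106 times in replicate 1 (532 CPM) and 634 times in replicate 2 (376 CPM), with a mean of 454 ± 110.1 CPM (SD, n = 2). Mir181a-1 had 1480 and 615 counts, or 374 and 365 CPM, with a mean of 369 ± 6.36 CPM. By reads assigned to 1 gene, the gene below Mir181c in the order was thus Mir181b-2. Its mean was 3.02-fold lower with no overlap between the libraries of the 2 genes. Mir181b-2 and Mir181a-1 lay close together: the lower value of Mir181b-2 and the higher of Mir181a-1 were 376 and 374 CPM. In replicate 2 the counting intervals of these 2 genes, 347 to 406 and 336 to 395 CPM, overlapped.

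The other member of each of those 2 clusters was rare. Mir181a-2 was counted 51 times in replicate 1 (12.9 CPM) and 56 times in replicate 2 (33.2 CPM), with a mean of 23.0 ± 14.4 CPM (SD, n = 2). Mir181b-1 had 36 and 14 counts, or 9.09 and 8.30 CPM, with a mean of 8.69 ± 0.557 CPM. By these counts the 2 genes were the lowest of the family in both libraries, and the mean of Mir181a-2 was 16.0-fold lower than that of Mir181a-1. A count of 0 would have allowed up to 3 counts, or 0.757 CPM in replicate 1 and 1.78 CPM in replicate 2, and both genes lay above these limits. In replicate 1 their 95% counting intervals, 9.59 to 16.9 CPM for Mir181a-2 and 6.36 to 12.6 CPM for Mir181b-1, overlapped.

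**Figure D2:**
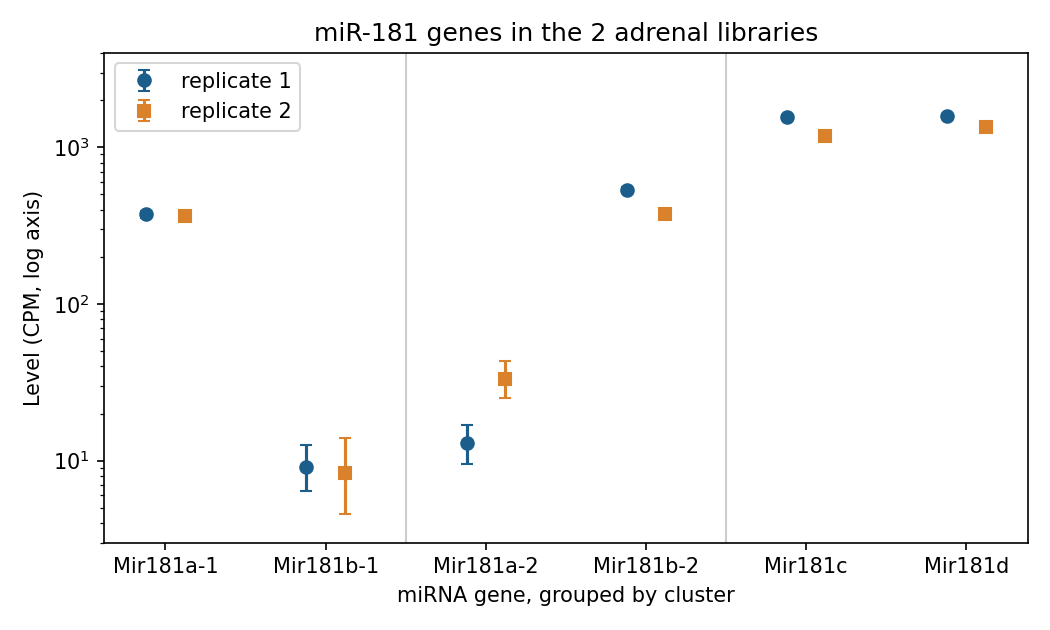
Level of each miR-181 gene in CPM on a log axis, with the genes grouped by cluster on the horizontal axis; circles are replicate 1, squares replicate 2, and bars the exact 95% counting intervals, which are smaller than the symbols for the abundant genes. Mir181c and Mir181d lie above 1000 CPM in both libraries, Mir181a-1 and Mir181b-2 between 365 and 532 CPM, and Mir181b-1 and Mir181a-2 between 8.30 and 33.2 CPM.

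Most of the family's counts came from the Mir181c and Mir181d cluster, with a mean of 2835 ± 439 CPM (SD, n = 2). It gave 77.2% of the family's counts in replicate 1 (95% exact interval 76.6 to 77.9%) and 76.3% in replicate 2 (75.2 to 77.5%). The Mir181a-2 and Mir181b-2 cluster followed with 477 ± 95.8 CPM, or 13.4% and 12.4% of the family. The Mir181a-1 and Mir181b-1 cluster had 378 ± 6.92 CPM, or 9.40% and 11.3%. Replicate 1 had 3176275 reads set aside because they fit several loci, 197 times the counts of the whole family, and replicate 2 had 1684373, or 302 times. How many of them were miR-181a-5p or miR-181b-5p is not known from the tables, so the order of the clusters holds for the reads assigned to 1 gene only.

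Within the clusters, the 2 genes were in balance only in the pair with no shared mature form. Mir181d gave 50.5% of the counts of its cluster in replicate 1 (95% exact interval 49.6 to 51.4%) and 53.3% in replicate 2 (51.8 to 54.8%), with Mir181c the rest. In the first cluster the a gene dominated: Mir181a-1 gave 97.6% (96.7 to 98.3%) and 97.8% (96.3 to 98.8%). In the second the b gene dominated: Mir181b-2 gave 97.6% (96.9 to 98.2%) in replicate 1 and 91.9% (89.6 to 93.8%) in replicate 2. By these counts the dominant gene was the upstream one of the first cluster and the downstream one of the second. The share of Mir181a-2 in its cluster was 2.36% in replicate 1 (1.77 to 3.10%) and 8.12% in replicate 2 (6.19 to 10.4%), intervals that did not overlap.

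The balance between loci that share a mature form was set beside that of other miRNAs made from numbered copies. Of 53 groups of numbered copies in the tables, 39 shared a mature sequence in RefSeq between their 2 highest loci, and in 17 of these both loci had at least 10 counts in both libraries. Sequences were matched by symbol, so copies whose symbol had no entry also count as not sharing. Mirlet7a-1 and Mirlet7a-2, both detected, were left out with no shared sequence found. Their log2 ratio was 1.01 in replicate 1 and 1.07 in replicate 2. Reads that fit both loci of a pair are in no gene, so each ratio compares the reads assigned to 1 locus, not the whole output of the loci. Mir181b-2 stood above Mir181b-1 by a log2 ratio of 5.79 in replicate 1 and 5.42 in replicate 2, the largest mean among the 17. The next was Mir92-1 over Mir92-2, with 4.74 and 4.67. Mir181a-1 stood above Mir181a-2 by 4.81 and 3.44, the fourth largest. The median over the 17 was 1.81, and the lowest was Mir26a-1 over Mir26a-2, with -0.91 in replicate 1 and 0.84 in replicate 2. The locus on top was the one with the higher mean, which makes these mean ratios positive or near 0 by construction. The minimum of 10 counts leaves out pairs whose lower locus is rare, so the order holds for the 17 alone. Among the 39, Mir199a-2 over Mir199a-1, at 8 and 5 counts for the lower locus in replicates 1 and 2, had 4.33 and 3.94, a mean above that of the Mir181a pair. Mir3074-1 had 104 and 34 counts with its copy at 0.

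**Figure D3:**
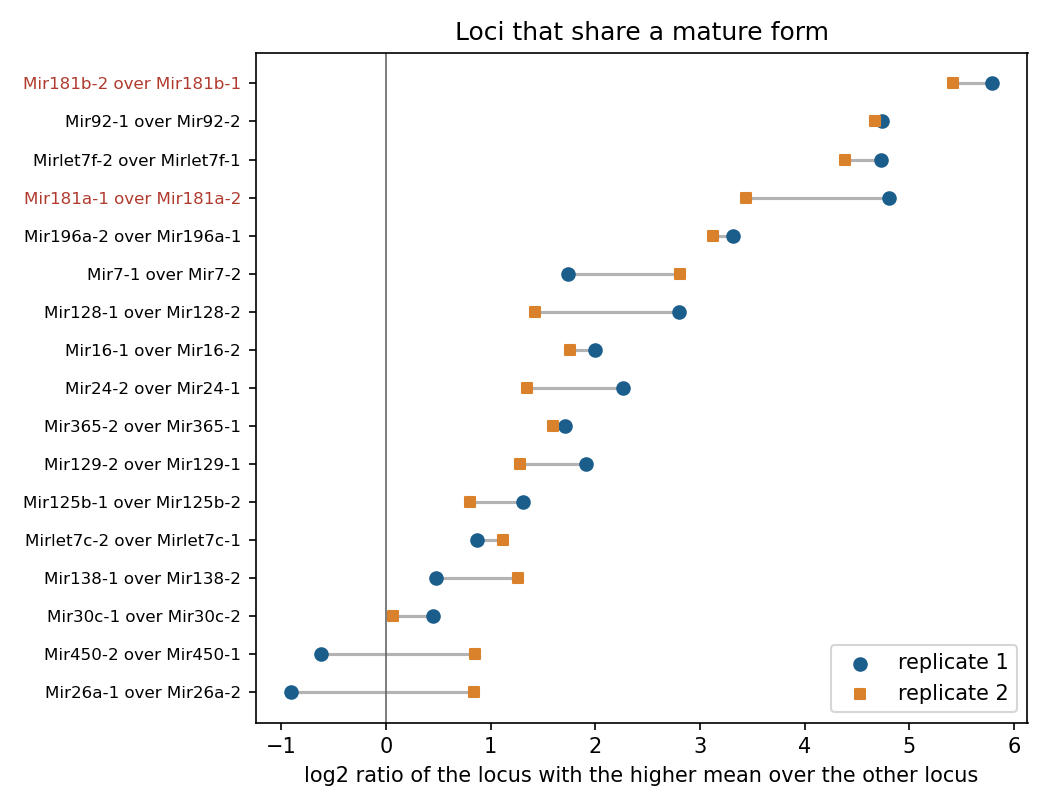
Log2 ratio of the locus with the higher mean level over the other locus on the horizontal axis, in reads assigned to 1 locus. Rows are the 17 miRNAs whose 2 loci were matched by symbol to a shared mature form and had at least 10 counts in both libraries. Circles are replicate 1, squares replicate 2, and miR-181 labels are red. Mir181b-2 over Mir181b-1 is at the top with 5.79 and 5.42, and Mir181a-1 over Mir181a-2 is the fourth, with one of the longer lines between its libraries.

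Between the 2 libraries, Mir181a-2 was the only one of the 6 genes called different. Its 12.9 CPM in replicate 1 and 33.2 CPM in replicate 2 gave a log2 ratio of -1.33 for replicate 1 over replicate 2, or 2.58-fold more in replicate 2 (95% exact interval 1.73 to 3.85). By an exact binomial test of the reads with Benjamini-Hochberg adjustment over all 404 tested genes, those that reached 10 counts in 1 or both libraries, its adjusted p was 3.21e-06. A gene was called with an adjusted p under 0.05 and a log2 ratio (on CPM + 0.5) above 1 or below -1. In all, 18.3% of the tested genes were called, of which 35 were higher in replicate 1 (8.66% of those tested) and 39 lower (9.65%), a split that was 40 and 39 under TMM and DESeq2 scaling. On that count, 1 called gene of 6 is near the background. The test compares 2 libraries by counting error alone and says nothing of conditions.

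Its cluster partner Mir181b-2 had the other sign, with a log2 ratio of 0.50 and 1.41-fold more in replicate 1 (95% exact interval 1.29 to 1.55). Mir181c had 0.40 and Mir181d 0.24, that is 1.32-fold and 1.18-fold more in replicate 1. The adjusted p of these 3 genes was under the threshold (1.22e-14, 1.42e-27 and 1.68e-11 by the exact test), while the sizes were below the limit for a call. An adjusted p under 0.05 at any size was reached by 251 of the 404 tested genes, or 62.1%, and by 4 of the 6 genes here. Mir181a-1, with a log2 ratio of 0.04 (adjusted p = 0.708, exact test), and Mir181b-1, with 0.12 (adjusted p = 0.923), were not past it. The interval of the ratio was 0.932 to 1.13 for Mir181a-1 and 0.576 to 2.20 for Mir181b-1. Sizes of the log2 ratio had a median of 0.32 over the 6 genes and 0.50 over all tested genes.

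**Figure D4:**
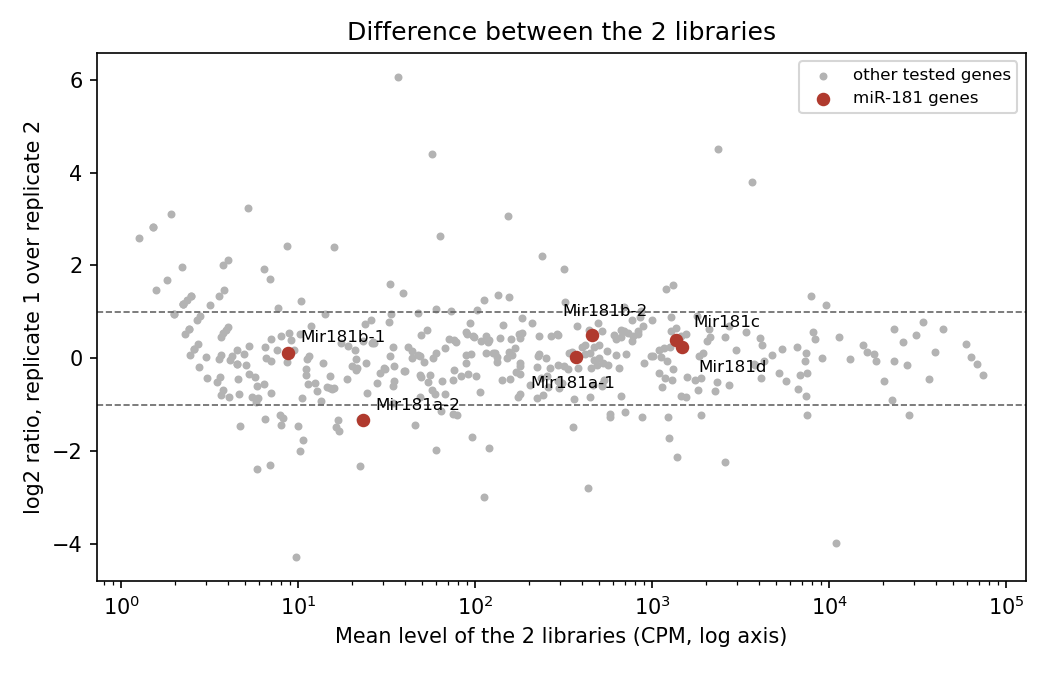
Log2 ratio of replicate 1 over replicate 2 against the mean level of the 2 libraries in CPM on a log axis; grey points are the other tested genes, red points the miR-181 genes, and dashed lines the limits of 1 and -1. Mir181a-2 at -1.33 is the only miR-181 gene beyond a line, and the other 5 lie between 0.04 and 0.50.

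By distance over the log2 levels of the 2 libraries, the detected genes most like Mir181d, the most abundant of the 6, were Mir106b, Mir181c and Mir16-1. Mir106b, of a cluster linked to cell growth, had 1692 and 1216 CPM in replicates 1 and 2. Mir16-1, of a family that restrains the cell cycle, had 1831 and 1277 CPM, and it shares a mature form with Mir16-2. Likeness over 2 libraries means only that the levels were near each other.

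The libraries also differed in markers of several cell types. The 3 erythroid miRNAs summed to 7248 CPM in replicate 1 and 595 in replicate 2, most of it from Mir451a with 6842 and 491 CPM. Mir144 was also higher in replicate 1 (log2 ratio 2.21), while Mir486 was lower (-0.64). Mir122 of hepatocytes was at 1299 and 20602 CPM. The 5 matched leukocyte miRNAs, all detected, summed to 1343 and 2189 CPM, with members going both ways. Mir223 (log2 ratio -1.48, the only one called), Mir146 (-0.81) and Mir142 (-0.55) were lower in replicate 1. Mir155 was higher (0.76), and Mir150 hardly differed (0.02). Of 9 neuronal miRNAs 3 were detected, with a sum of 1081 and 802 CPM, most of it from Mir137 with 977 and 678 CPM, while Mir128-2 alone was called, with 12.6 and 32.0 CPM. Mir124a-2 and Mir124a-3 were at 0; the Mir124a and Mir9 genes are numbered copies, and reads that fit several loci are in no gene. Among lists for the gland itself, 4 miRNAs linked to adrenal cortex, all detected, summed to 17526 and 40644 CPM. Most of these sums came from Mir21a, with 17010 and 39571 CPM, so they follow 1 gene and do not measure the amount of cortex. Mir132 was also called lower in replicate 1 (log2 ratio -1.15), while Mir202 (-0.49) and Mir212 (-0.22) were not called. The 4 of chromaffin and other endocrine cells summed to 36299 and 46670.0 CPM, most of it from Mir375 with 31129 and 42377 CPM. Mir7-2, alone called there, was higher in replicate 1 (1.03), as was Mir7b (0.28). Endothelial miRNAs summed to 65225 and 83398 CPM, and those of smooth muscle and stroma to 44515 and 41751. In the stroma list none was called. There Mir145a (log2 ratio 0.50) and Mir143 (0.13) were higher in replicate 1, and Mir214 (-0.58), Mir199a-1 (-0.46) and Mir199a-2 (-0.07) were lower. Striated muscle miRNAs summed to 1141 and 2695 CPM, nearly all from Mir206 with 1130 and 2646 CPM. Mir206 (log2 ratio -1.23), Mir208b (-1.31) and Mir499 (-2.32) were called, all lower in replicate 1. Mir133a-2 was at 0, and the Mir1a and Mir133a genes are also numbered copies. Epithelial miRNAs summed to 1318 and 936 CPM, also with members going both ways. Mir200b (log2 ratio 3.07, 1078 counts against 54 in replicate 2) and Mir200c (1.25) were called higher in replicate 1. Mir141 (0.96), Mir429 (0.77) and Mir200a (0.74) were higher but not called, and Mir203 (-0.16) and Mir205 (-0.52) were lower. Kidney miRNAs summed to 241 and 379 CPM with members going both ways: Mir192 (log2 ratio -1.93) and Mir194-2 (-1.98) were lower in replicate 1, and Mir194-1 (39 counts, against 1 in replicate 2) and Mir215 (287 against 1) were higher. The part of these differences in the values of Mir181a-2 was not tested.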

How the data were processed

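The deposited tables hold raw read counts per miRNA gene for 2 libraries, made by the authors with annotation M21 on build mm10, per the deposited file lists. The aligner, trimming and filters are not given in the sources used here. Each table has 3 count columns (either strand, sense strand, opposite strand) and 4 summary rows, which were left out of library totals. Sense-strand counts were used. Reads numbered 11770895 in replicate 1 and 6557080 in replicate 2. Those aligning to more than 1 locus, 27.0% and 25.7%, are in a summary row and in no gene. All 2202 identifiers matched GENCODE M21. No reads fell on the strand opposite to the 6 genes.

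CPM, exact Clopper-Pearson intervals and exact two-sided binomial tests were computed with scipy 1.17.1, pandas 2.3.3 and numpy 2.4.6 under Python 3.11.15. The test was checked on simulated counts that held counting error alone, so the check says nothing of spread between libraries. Scaling factors came from edgeR 4.0.16 (TMM) and DESeq2 1.42.0 in R 4.3.3. A quasi-likelihood test was not possible with 1 library on each side. Named genes were the 6 members, the 3 genes nearest to the most abundant member, marker lists, and the extremes of the copies of one mature form; the second of these extremes, Mir92, was named after its values were seen. The members follow a rule on symbols, but the choice of this family and of the lists was made with earlier results of these data known. Mir199a and Mir3074 were also named after their values were seen. Mature sequences are from RefSeq, and the hairpin sequence of Mir181c was not used here. Of the listed markers, Mir142hg matched no gene.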

Additional observations from a re-analysis of the deposited data

How the results depend on the processing

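No log2 ratio of the 6 genes changed sign under the alternatives run. Levels are positive and could only move in size, as given below. No paired analysis was possible because there was 1 group. TMM and DESeq2 scaling moved the log2 ratio of the median tested gene by 0.107, and none of the 6 genes changed sign. Over 6 alternatives the log2 ratio of Mir181a-2 ran from -1.35 to -1.10 (adjusted p 2.77e-06 to 2.00e-05, exact test), and it was called in each. Scaling to all reads was not among these 6, so whether the call holds under it was not tested. The miRNA counts were 33.7% of all reads in replicate 1 and 25.7% in replicate 2. Scaling to all reads would thus make the difference of Mir181a-2 smaller. Per 1000000 reads of any kind, the level of the family was 1110.6 ± 368 CPM (SD, n = 2), lower since the total is larger. The clusters of Mir181a-1, Mir181a-2 and Mir181c were at 112 ± 23.2, 144 ± 55.2 and 854 ± 289 CPM. On this scale each SD was a larger part of its mean, so how near the libraries lie depends on the total used. In the either-strand column, which has a smaller total and the same counts for the 6 genes, the cluster of Mir181a-1 was at 431 CPM, Mir181a-1 at 421, Mir181b-1 at 9.93 and Mir181d at 1674. Genes called different, 74 with 35 higher and 39 lower in replicate 1, numbered 79 (40 and 39) under TMM and DESeq2 scaling, 71 (32 and 39) in the either-strand column, 75 (32 and 43) with at least 1 count in either library, 57 (22 and 35) with at least 10 counts in both, 57 (24 and 33) with 5 CPM added, 132 (66 and 66) at a log2 ratio over 0.58, with 1 of the 6 genes, and 251 (131 and 120) at any size, with 4 of the 6. With 2 libraries, leaving 1 out cannot move a mean by more than its SD, so it shows nothing about stability. Depth limits Mir181b-1 and Mir181a-2, at 14 to 56 counts.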

Other observations

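The balance within the clusters was also set beside that of other neighbouring miRNA genes, a description chosen after the values were seen. There were 116 pairs of adjacent detected miRNA genes on 1 strand within 10000 bases of each other, some of which share a gene. In the reads assigned to 1 gene, the gene with the higher mean of a pair stood above its neighbour by a median log2 ratio of 1.98. Mir181a-1 over Mir181b-1, with a mean of 5.33, ranked 13th, Mir181b-2 over Mir181a-2, with 4.40, ranked 26th, and Mir181d over Mir181c, with 0.11, ranked 111th. The balance of a pair moved between the libraries by a median log2 difference of 0.44. That of Mir181b-2 over Mir181a-2 moved by 1.83, with 5.31 in replicate 1 and 3.48 in replicate 2, the fourth largest of the 116.

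Mir128-2, the lower locus of a pair that shares miR-128, had counts close to those of Mir181a-2, with 50 in replicate 1 and 54 in replicate 2 (log2 ratio -1.31). Its partner Mir128-1 had 359 and 146 counts (0.07), and the balance of that pair moved by 1.37 between the libraries, as did that of Mir181a-1 over Mir181a-2. These genes were chosen after their values were seen.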
